A study of Mus musculus with 5 samples.

Results

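The 10 genes described here are Lyz2, Lyz1, Mpeg1, Cd68, Mmp12, Ms4a7, Ms4a6b, Ms4a6c, Ms4a6d and Ms4a4c. They were grouped as effector or membrane genes of macrophages, though Lyz1 is known from Paneth cells and Ms4a6b also from T cells. They are 10 of the 27179 genes in the count table. They were picked by name, because most of them had been seen lower in all 3 Suz12 knockout libraries. Their difference between genotypes is therefore given below as a description, and the calls of the fits over all genes, which rest on the same contrast, are given only as counts.

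Messenger RNA was profiled in 5 libraries, each made from 5000 Langerhans cells isolated from C57BL/6 mouse skin at an age of 1 week. The mice were Suz12 cKO, a conditional knockout of Suz12 (3 libraries), or wild type (2 libraries). Suz12 encodes a scaffold of Polycomb repressive complex 2, the enzyme that puts a repressive methyl mark on histone H3. The sources used here name neither the Cre line nor the deleted exons of the knockout, so which other cells of the mice lost the gene is not known.

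Langerhans cells are phagocytes that live in the epidermis, arise from embryonic macrophage precursors and act as antigen-presenting cells. They therefore share part of the gene programme of tissue macrophages. In macrophages, lysozyme cleaves the cell wall of bacteria, Mpeg1 encodes perforin-2, a pore-forming protein of the phagosome, and Cd68 encodes a heavily glycosylated lysosomal membrane protein. Mmp12 encodes macrophage elastase, a secreted metalloproteinase. The MS4A genes encode membrane proteins related to CD20, and Ms4a7 is widely used as a marker of tissue macrophages.

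The libraries held 12090062 to 25725900 counts assigned to genes in Suz12 cKO and 17041996 to 18656968 in wild type. Values are CPM, counts set relative to the TMM-scaled total of their library, and 3 counts correspond to 0.106 to 0.258 CPM, depending on the library. Intervals cover the counting error of reads only, and they are too narrow where PCR copies of a molecule were counted as separate reads. Suz12 itself had 0, 0 and 7 counts in Suz12 cKO replicates 1 to 3, against 88 and 39 counts in wild type replicates 1 and 2. The Langerhans cell gene Cd207 lay between 6639 and 14597 CPM in Suz12 cKO, against 7584 and 7417 CPM in wild type. The source label of all 5 libraries reads alveolar macrophage. Of 16 marker genes of those cells, 6 had no count in any library, among them Siglecf, Car4 and Chil3. Others of the 16 were counted in every library: Ear2 (63.8 to 466 CPM), Krt79 (91.3 to 177 CPM), Plet1 (46.5 to 171 CPM), Il18 (52.1 to 136 CPM) and Ear1 (1.88 to 9.31 CPM). The design text calls the libraries biological replicates without saying whether each came from its own mice, so p-values measure the spread between these samples.

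The pair of lysozyme genes shows how far counts can be told apart between near copies. Lyz2 lies on chromosome 10 from 117277541 to 117282272 and Lyz1 beside it from 117287795 to 117292868 (RefSeq, GRCm38.p6, the assembly behind mm10), both on the minus strand. The last 300 bases of their coding sequences (positions 145 to 444, GENCODE vM21 transcripts, stop codon left out) are shown because a read can be assigned to one copy only where the copies differ. Capitals mark the 8 differing bases of this stretch.
Lyz2 coding sequence: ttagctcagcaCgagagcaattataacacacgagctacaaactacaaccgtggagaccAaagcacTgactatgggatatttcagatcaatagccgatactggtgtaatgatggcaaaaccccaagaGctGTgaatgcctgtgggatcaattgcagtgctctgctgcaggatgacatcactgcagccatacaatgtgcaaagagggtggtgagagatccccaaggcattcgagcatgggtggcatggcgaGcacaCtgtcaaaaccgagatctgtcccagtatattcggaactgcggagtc
Lyz1 coding sequence: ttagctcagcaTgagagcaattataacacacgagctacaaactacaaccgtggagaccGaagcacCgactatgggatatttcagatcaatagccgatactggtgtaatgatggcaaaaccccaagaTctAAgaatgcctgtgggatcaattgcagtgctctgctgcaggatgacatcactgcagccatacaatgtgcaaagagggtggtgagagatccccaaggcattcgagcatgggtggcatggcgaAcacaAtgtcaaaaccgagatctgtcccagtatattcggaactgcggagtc
Over the whole coding sequence the copies differed at 22 of 444 bases, in 18 of 148 codons, and 95.05% of the bases were identical. The longest run without a difference covered 118 bases, from position 276 to 393.

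The similarity extends upstream of both genes. The 250 bases before each start (RefSeq promoter windows, GRCm38.p6, minus strand) are shown to compare the copies, again with the differing bases in capitals. The Lyz2 window is chr10:117282273-117282522 and the Lyz1 window is chr10:117292869-117293118.
Lyz2 upstream: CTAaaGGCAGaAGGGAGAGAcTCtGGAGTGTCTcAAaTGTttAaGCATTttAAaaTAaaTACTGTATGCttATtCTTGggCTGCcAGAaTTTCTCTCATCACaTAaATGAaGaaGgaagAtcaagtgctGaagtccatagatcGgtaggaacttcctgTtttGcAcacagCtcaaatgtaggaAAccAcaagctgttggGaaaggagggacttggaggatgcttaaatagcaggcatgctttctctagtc
Lyz1 upstream: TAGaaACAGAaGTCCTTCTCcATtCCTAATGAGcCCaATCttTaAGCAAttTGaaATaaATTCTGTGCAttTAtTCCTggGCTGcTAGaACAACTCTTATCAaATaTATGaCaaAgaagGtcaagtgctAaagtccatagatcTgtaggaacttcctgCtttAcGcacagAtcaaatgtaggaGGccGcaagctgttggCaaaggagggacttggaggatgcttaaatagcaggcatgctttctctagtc
Set side by side without gaps, the windows were identical over the 50 bases next to the start, and the 98 differing bases all lay in the 200 bases before those. A shift of the copies by an insertion would add to the differences counted there.

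A 75-base read, the length given in the design text, can lie on both lysozyme transcripts. Of the 1189 stretches of 75 bases in the Lyz1 transcript, 74 (6.22%) occurred unchanged in the Lyz2 transcript, and 531 (44.7%) occurred there with at most 2 differences. Of the 1242 stretches in the Lyz2 transcript, the same 74 and 531 were 5.96% and 42.8%. No transcript of a gene other than the lysozyme partner held any stretch of either gene. The sources used here do not say how reads matching both genes were counted.

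Lyz2, the lysozyme gene of macrophages and neutrophils, was the most abundant of the 10 genes per length in both genotypes. It lay at 528, 639.8 and 499.5 CPM in Suz12 cKO replicates 1 to 3, against 2101 and 1081 CPM in wild type replicates 1 and 2. The Suz12 cKO libraries lay close together and below both wild type libraries, which themselves differed 1.94-fold. The means were 556 ± 74.2 CPM in Suz12 cKO and 1591 ± 721 CPM in wild type (SD, n = 3 and n = 2). Fitted as Suz12 cKO minus wild type, this was -1.52 on the log2 scale (standard error 0.35).

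Lyz1, known as the lysozyme of Paneth cells in the gut, showed the same order of groups at a lower level. It lay at 31.4, 48.3 and 36.0 CPM in Suz12 cKO, against 125 and 74.4 CPM in wild type (log2 fold change -1.37, standard error 0.51). The groups did not overlap. Lyz1 held 5.62%, 7.02% and 6.72% of the summed counts of both genes in Suz12 cKO, against 5.63% and 6.44% in wild type. The 95% exact binomial (Clopper-Pearson) intervals ran from 5.15% to 7.39% over the Suz12 cKO libraries and from 5.41% to 6.79% over the wild type libraries. The mean share was 6.45 ± 0.737% in Suz12 cKO and 6.03 ± 0.572% in wild type (SD, n = 3 and n = 2), a difference smaller than the spread within either genotype. With 3 libraries against 2, an exact permutation test cannot give a p below 0.1, so the shares were not tested. Whether Lyz1 counts include reads of Lyz2 was not tested, and the values of the pair are not independent of each other. With both genes summed, the level was 559, 688 and 535 CPM in Suz12 cKO, against 2226 and 1156 CPM in wild type.

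**Figure D1:**
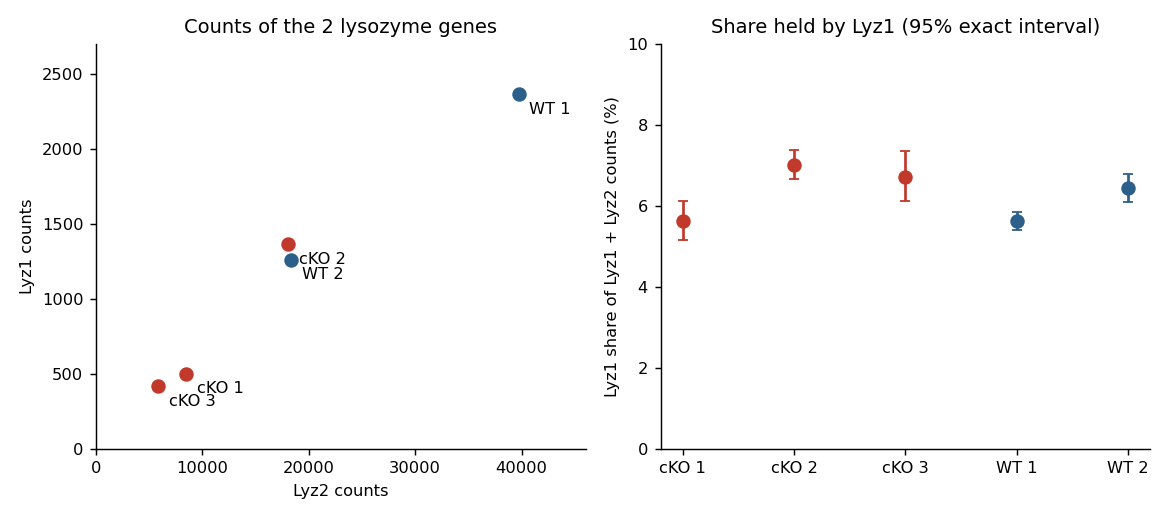
Left, Lyz1 counts against Lyz2 counts, a point per library (Suz12 cKO in red, wild type in blue). Right, the share of the summed Lyz1 and Lyz2 counts held by Lyz1 in percent, with 95% exact intervals for counting error; the 5 libraries lie between 5.62% and 7.02%.

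Mpeg1, which encodes perforin-2, lies on chromosome 19 from 12460770 to 12465285. It lay at 22.0, 8.50 and 24.4 CPM in Suz12 cKO, against 107 and 76.1 CPM in wild type. All Suz12 cKO values were below both wild type values, and the lowest wild type value was 3.12 times the highest Suz12 cKO value. The means were 18.3 ± 8.56 CPM in Suz12 cKO and 91.7 ± 22.1 CPM in wild type (SD, n = 3 and n = 2). Its log2 fold change was -2.33 (standard error 0.68). None of its 4260 stretches of 75 bases occurred in another gene's transcript.

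Cd68, on chromosome 11 from 69664213 to 69666170, had the second highest level per length in both genotypes. It lay at 227, 279.8 and 379.6 CPM in Suz12 cKO, against 686 and 584 CPM in wild type, and the groups did not overlap. The means were 295 ± 77.4 CPM in Suz12 cKO and 635 ± 72.2 CPM in wild type (SD, n = 3 and n = 2). Its log2 fold change of -1.10 (standard error 0.32) was the smallest in size among the 7 genes whose groups were separate.

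The window upstream of Cd68 (chr11:69666171-69666420, GRCm38.p6, minus strand, RefSeq) is shown because all 3 motifs searched were found in it. The motifs were GAGGAA, the core bound by PU.1, TTGCNNAA, a C/EBP-type site, and TGANTCA, an AP-1 site, read on both strands. The capitals mark the matches.
Cd68 upstream: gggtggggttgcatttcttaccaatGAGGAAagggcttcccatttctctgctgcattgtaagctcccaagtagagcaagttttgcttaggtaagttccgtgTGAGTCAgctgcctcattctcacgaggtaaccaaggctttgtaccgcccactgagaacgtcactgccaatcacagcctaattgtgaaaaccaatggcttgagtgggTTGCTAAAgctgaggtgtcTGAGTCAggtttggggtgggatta
PU.1 and C/EBP factors are known as regulators of macrophage genes. Over all 32851 RefSeq windows, 23.25% held GAGGAA, 9.56% held TTGCNNAA and 6.75% held TGANTCA. The 9 genes with a window had 11 windows, since Mmp12 and Ms4a7 had 2 each, and each motif was found in 3 of the 11: GAGGAA for Mmp12, Cd68 and Ms4a4c, TTGCNNAA for Mmp12, Lyz1 and Cd68, and TGANTCA for Cd68 and in the second windows of Mmp12 and Ms4a7. Matches of letters are a description, and they do not show binding.

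Mmp12, on chromosome 9 from 7344397 to 7360461, had groups that were barely separate. It lay at 59.6, 74.6 and 84.7 CPM in Suz12 cKO, against 557 and 96.1 CPM in wild type. Wild type replicate 1 stood apart from the other 4 libraries, at 5.79 times wild type replicate 2. Its log2 fold change of -2.16 (standard error 0.68) became -0.39 without wild type replicate 1. In the annotation Mmp12 shares 157 exonic bases with Mmp1b on the opposite strand, and Mmp1b had no count in any library.

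**Figure D2:**
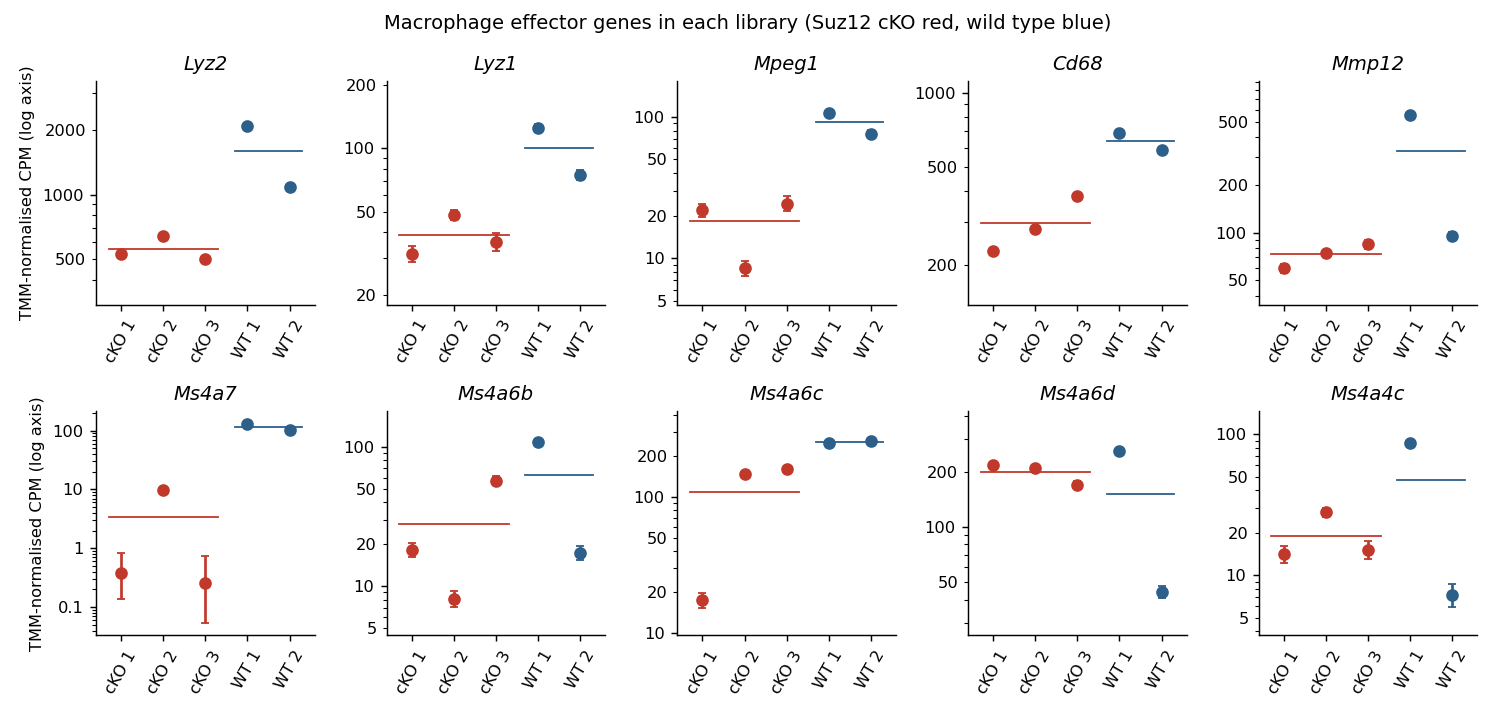
TMM-normalised CPM (log axis, a scale of its own in each panel) of the 10 genes in Suz12 cKO replicates 1 to 3 (red) and wild type replicates 1 and 2 (blue); bars on the points are 95% Poisson intervals of the count and lines are group means. Ms4a7 has the widest gap between genotypes, and Ms4a6b, Ms4a6d and Ms4a4c overlap, with wild type replicate 2 low.

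The 5 MS4A genes lie within a cluster on chromosome 19, from 11321039 (Ms4a7) to 11604804 (Ms4a6d). Ms4a7 had the widest gap between genotypes of the 10 genes. It had 6, 271 and 3 counts in Suz12 cKO replicates 1 to 3, against 2412 and 1726 counts in wild type. These were 0.375 CPM (95% exact Poisson interval 0.138 to 0.817), 9.59 CPM (8.49 to 10.8) and 0.258 CPM (0.0531 to 0.753) in Suz12 cKO, against 128 and 102 CPM in wild type. Suz12 cKO replicate 2 stood apart from the other Suz12 cKO libraries, but the lowest wild type value was still 10.6 times that of this library. Its log2 fold change of -5.05 (standard error 1.58) became -8.46 without Suz12 cKO replicate 2. None of the 1502 stretches of 75 bases in the Ms4a7 transcript occurred in a transcript of another gene.

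Beside Ms4a7, only Ms4a6c had separate groups among the MS4A genes. It lay at 17.5, 147 and 159 CPM in Suz12 cKO, against 249 and 256 CPM in wild type. Suz12 cKO replicate 1 was far below the other libraries of its genotype, and the log2 fold change of -1.23 (standard error 0.81) was -0.71 without it. Ms4a6c shares 1088 exonic bases with the transcript gene BE692007 on the opposite strand, which had no count in any library. Of its 1767 stretches of 75 bases, 943 occurred in transcripts of other genes on either strand, so its counts depend on how strand and shared reads were treated.

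The other 3 MS4A genes did not keep this order. Ms4a6b, also known from T cells, lay at 18.3, 8.11 and 56.9 CPM in Suz12 cKO, against 107 and 17.2 CPM in wild type. Ms4a4c lay at 14.0, 27.8 and 15.1 CPM in Suz12 cKO, against 86.7 and 7.19 CPM in wild type. For both genes wild type replicate 1 was the highest library and wild type replicate 2 lay within or below the Suz12 cKO values. Ms4a6d lay at 218, 209 and 169.8 CPM in Suz12 cKO, against 259 and 43.9 CPM in wild type, and it alone had a fold change above 0 (0.39, standard error 0.69). Its Suz12 cKO libraries were close together while the wild type libraries differed 5.91-fold. The log2 fold changes of Ms4a6b and Ms4a4c were -1.16 (standard error 1.08) and -1.31 (standard error 1.12). Without wild type replicate 1 they were 0.69 and 1.40, and that of Ms4a6d was 2.18. Without wild type replicate 2 the value of Ms4a6d was -0.38.

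The MS4A genes also differed in their shares of one sum. The 5 genes together lay at 268, 401.2 and 401.2 CPM in Suz12 cKO, against 829.6 and 427 CPM in wild type. Ms4a7 held 0.140%, 2.39% and 0.0642% of their summed counts in Suz12 cKO, against 15.4% and 23.9% in wild type. Ms4a6d held 81.3%, 52.0% and 42.3% in Suz12 cKO, against 31.3% and 10.3% in wild type. The groups did not overlap for either share, and they overlapped for the shares of Ms4a6b, Ms4a6c and Ms4a4c. Ms4a6c held 6.51%, 36.6% and 39.7% in Suz12 cKO, against 30.0% and 60.1% in wild type. Shares of one sum are tied to each other, so a lower share of 1 gene raises the others.

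**Figure D3:**
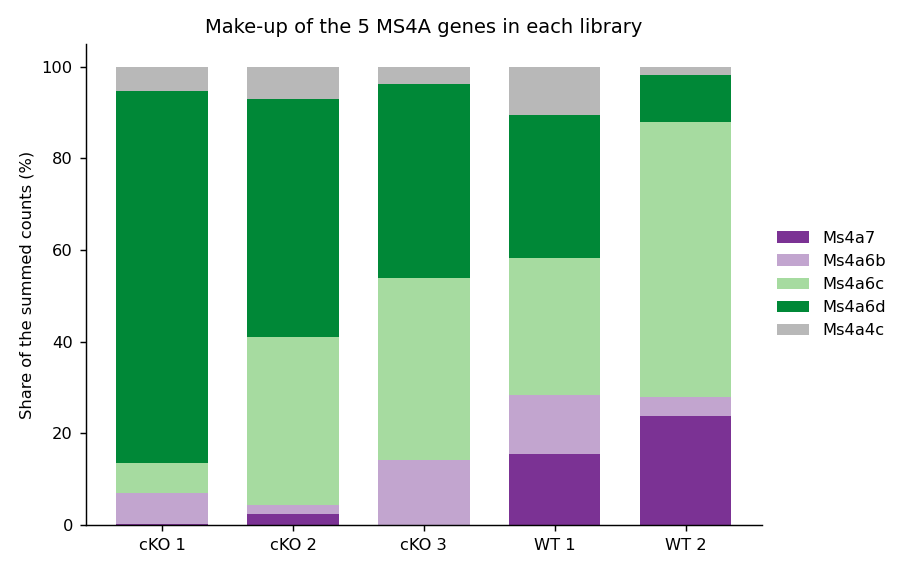
Share in percent of the summed counts of the 5 MS4A genes held by each gene, a bar per library, with the Suz12 cKO libraries on the left and the wild type libraries on the right. Ms4a7 holds 15.4% and 23.9% in wild type and at most 2.39% in Suz12 cKO.

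The MS4A copies were less alike than the lysozymes. The coding sequences of Ms4a6b and Ms4a6d were identical at 79.8% of the aligned positions, gaps included, those of Ms4a6b and Ms4a6c at 74.4%, and those of Ms4a6c and Ms4a6d at 67.2%. Against these 3 and Ms4a4c, Ms4a7 was identical at 46.7% to 51.2%. Between Ms4a6b and Ms4a6c, 22 stretches of 75 bases were shared without a difference, and between Ms4a6b and Ms4a6d 7 were shared. Ms4a4c shared 65 of its 1649 stretches with Ms4a4b, a gene of T cells, which lay at 0.250 to 1.24 CPM in Suz12 cKO, against 3.39 and 1.24 CPM in wild type.

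Of the 20 genes named Ms4a in the table, 12 had no count in any library, among them the B cell gene Ms4a1 (CD20), the mast cell gene Ms4a2 and the myeloid progenitor gene Ms4a3. Ms4a4a had 505 counts in Suz12 cKO replicate 2 and none in replicates 1 and 3, against 72 and 83 counts in wild type. It was singled out after its values were seen.

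Over the 10 genes, all of which had enough counts to be tested, 9 had a fitted log2 fold change below 0 and 1 above, with a median of -1.34. Over all 9988 tested genes the median was 0.06, with 4742 below 0 and 5246 above. For 7 of the 10 genes every Suz12 cKO value was below every wild type value, and for 0 of the 10 every one was above; the shares over all tested genes were 10.2% and 8.87%. Since the genes were chosen for this order, the count describes the choice. Mmp12 lay just inside that rule, with a lowest wild type value 1.14 times the highest Suz12 cKO value. The nearest gene outside it, Ms4a6b, was not a near miss: its groups overlapped widely, with a lowest wild type value 0.302 times the highest Suz12 cKO value.

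edgeR's quasi-likelihood test called none of the 10 genes, and none of all tested genes (0.0%), at an adjusted p of 0.05. At an unadjusted p under 0.05, 415 of all genes were found, and limma-voom called 0 of all genes. DESeq2 called 191 genes, 2.12% of the 9019 with an adjusted p (0.599% lower and 1.52% higher in Suz12 cKO). Of the 10 genes it called Lyz2 and Ms4a7, both lower. The contrast that chose the genes made these calls too, so they support nothing about the 10. In bulk RNA, fewer macrophage-like cells in a sort and less RNA of these genes per cell cannot be told apart.

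**Figure D4:**
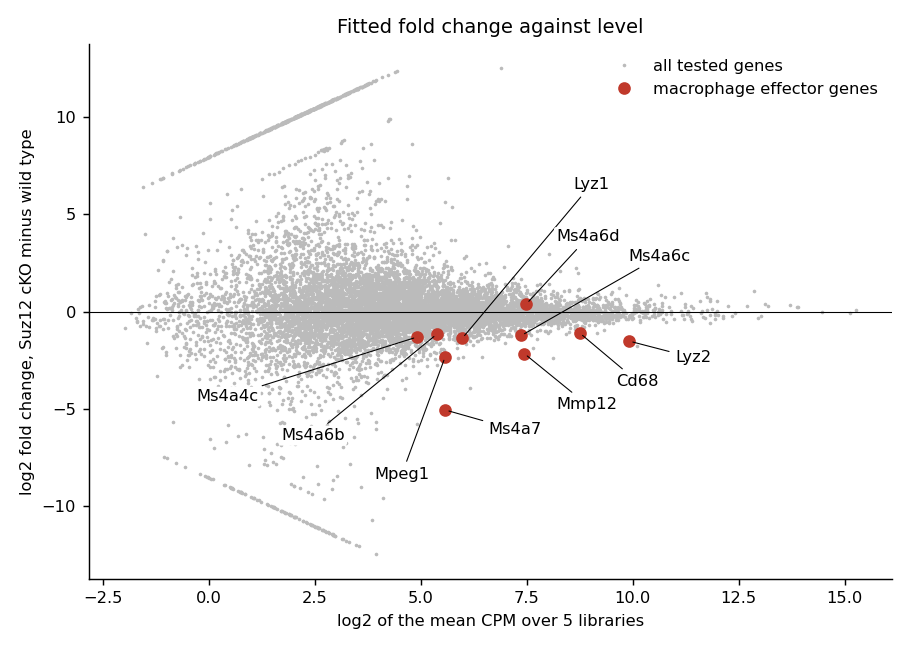
Fitted log2 fold change, Suz12 cKO minus wild type, against the log2 of the mean CPM over the 5 libraries, a grey point per tested gene and a red point for each of the 10 genes. Of these, 9 lie below 0 and Ms4a6d lies above; the straight grey edges are genes without counts in 1 genotype.

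The libraries of a genotype did not agree equally. Wild type replicate 1 was the highest of the 5 libraries for 9 of the 10 genes, all but Ms4a6c. Wild type replicate 2 was the lowest for 2, Ms4a6d and Ms4a4c. Without wild type replicate 1 the log2 fold changes of Lyz2, Lyz1, Mpeg1 and Cd68 were -0.96, -0.94, -2.05 and -0.98. Over all 5 ways to leave out a library, Lyz2, Lyz1, Mpeg1, Cd68, Mmp12, Ms4a7 and Ms4a6c kept a fold change below 0. For these genes every Suz12 cKO value lay below every wild type value, so the sign follows from that order and is no test of it.

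The sample titles are written in 2 styles, which split both genotypes; the labels do not say what the styles stand for. Within the style LC, both Suz12 cKO libraries (replicates 1 and 2) lay below wild type replicate 1 for 10 of the 10 genes, and for 29.6% of all tested genes. Within the style Langerhans-cell, Suz12 cKO replicate 3 lay below wild type replicate 2 for 7 of the 10, and for 50.4% of all tested genes. There the ratio of Suz12 cKO to wild type was 0.462 for Lyz2, 0.320 for Mpeg1, 0.650 for Cd68 and 0.881 for Mmp12, and 3.31 for Ms4a6b, 3.87 for Ms4a6d and 2.10 for Ms4a4c. The 7 lower genes are those with every Suz12 cKO value below every wild type value over all libraries. They had to be lower within both styles, so the counts are no separate support for that order.

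**Figure D5:**
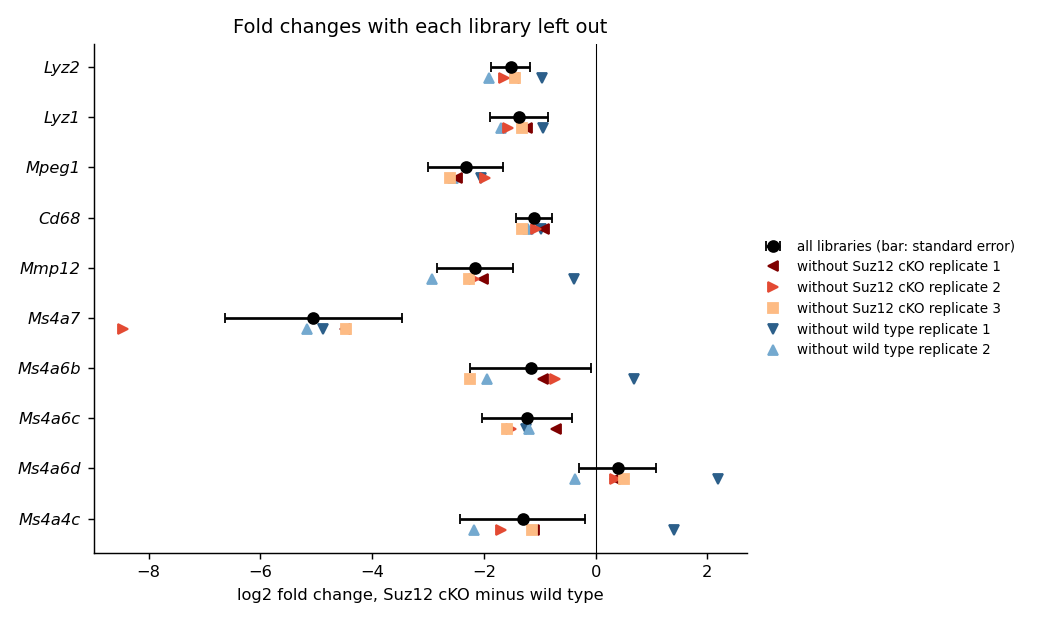
Log2 fold change of each gene, Suz12 cKO minus wild type, from all libraries (black, with its standard error) and with each library left out in turn (coloured marks). Without wild type replicate 1, Ms4a6b and Ms4a4c turn to 0.69 and 1.40 and Mmp12 moves to -0.39, while Mpeg1 and Cd68 stay at -2.05 and -0.98.

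Set per kilobase of the counted gene length, the levels in Suz12 cKO ran from 526 ± 70.2 CPM per kilobase for Lyz2 and 293 ± 76.8 for Cd68 to 145 ± 18.7 for Ms4a6d (SD, n = 3). The ranges of these 3 genes did not overlap. At the low end stood Mpeg1, at 4.22 ± 1.97 CPM per kilobase, and Ms4a7, at 3.63 ± 5.70, whose ranges overlapped. In wild type, Lyz2 averaged 1505 ± 682 and Cd68 630.1 ± 71.6 CPM per kilobase (SD, n = 2), and they were separate from each other and from the rest. From Ms4a6c, at 123 ± 2.65 CPM per kilobase, down to Mpeg1, at 21.2 ± 5.10, each gene overlapped the next in wild type. Ms4a7 stood in the fourth place in wild type, at 122 ± 19.5 CPM per kilobase, and last in Suz12 cKO.

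The profiles of Lyz2, Mpeg1, Cd68 and Ms4a7 over the 5 libraries were compared with those of genes at a mean of 50 CPM or more, by the root mean square difference of log2 CPM (prior count 2) centred on each gene's own mean. Closest to Lyz2 were Nras (0.138), Lyz1 (0.141) and Eef1akmt2 (0.155), while Cd68 and Mpeg1 differed from Lyz2 by 0.405 and 0.819. Closest to Cd68 were Srsf11 (0.159), Mrps16 (0.162) and Slirp (0.164), and closest to Mpeg1 were Capsl (0.436), Mrpl41 (0.489) and Med11 (0.521). Among the genes searched Ms4a7 had no near match, and the 3 closest, Hcar2, Ccl9 and Cops2, differed by 2.39, 2.39 and 2.46. Ms4a7 and Mpeg1 themselves averaged 47.9 and 47.7 CPM, and other genes under 50 CPM, which may lie closer, were not searched. Hcar2 lay at 20.1, 99.0 and 7.64 CPM in Suz12 cKO, against 78.9 and 111 CPM in wild type, with overlap. Ccl9, a macrophage chemokine, lay at 0, 18.8 and 12.9 CPM in Suz12 cKO, against 234 and 89.9 CPM in wild type. Cops2 lay at 20.0, 31.3 and 13.3 CPM in Suz12 cKO, against 76.2 and 152 CPM in wild type. Such likeness over 5 libraries is a description of these libraries.

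Relatives of the 10 genes and other macrophage genes were read from 7 lists of 105 names, of which 103 were in the table and 47 had enough counts. None of the 47 was called by edgeR in either direction, and neither was any of all 9988 tested genes (0.0%). An unadjusted edgeR p under 0.05 was found for 2 of the 47, beside 415 of all tested genes. Of the 47, 25 lay higher and 22 lower in Suz12 cKO, with a median log2 fold change of 0.06. Every Suz12 cKO value was under the wild type values for 3 genes (6.38%), beside 10.2% of all tested genes, and over them for 3, beside 8.87%.

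Among matrix metalloproteinases and their inhibitors, 6 of 9 tested genes lay higher and 3 lower; the median log2 fold change was 0.53, and 0.15 without Suz12 cKO replicate 2. Unlike Mmp12, the gelatinase gene Mmp9 lay higher in all Suz12 cKO libraries, at 230.4, 523 and 249 CPM, against 170.2 and 185 CPM in wild type (log2 fold change 0.91, standard error 0.44). Timp1, an inhibitor of these enzymes, lay at 119.9, 14.5 and 80.3 CPM in Suz12 cKO, against 0.423 and 5.60 CPM in wild type (4.57, standard error 1.51). DESeq2 called Timp1, the single call among the 47 genes, beside 2.12% of the 9019 genes with an adjusted p. Timp2 lay at 43.2, 131 and 95.7 CPM in Suz12 cKO, against 89.4 and 35.6 CPM in wild type, with overlap.

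The relatives of Cd68 in the LAMP family did not share its order. Of 3 tested genes 2 lay higher and 1 lower, and the median log2 fold change was 0.27, or -0.10 when wild type replicate 2 was left out and 0.80 when wild type replicate 1 was. Lamp1, the main lysosomal membrane glycoprotein, lay at 252, 313 and 334 CPM in Suz12 cKO, against 322 and 173 CPM in wild type. Lamp2 lay at 337, 416 and 239 CPM in Suz12 cKO, against 355 and 149.7 CPM in wild type. For both, wild type replicate 2 was the lowest library, as it was for Ms4a6d.

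Other lysozyme-type genes and other pore-forming genes were nearly absent. Among 8 lysozyme-type genes 6 had no count, and the 1 tested, Lyzl4, lay at 6.70, 12.6 and 0 CPM in Suz12 cKO, against 0 and 11.1 CPM in wild type. Among 7 perforin and complement pore genes 5 had no count. The 1 tested, C8g, lay at 0, 0 and 12.8 CPM in Suz12 cKO, against 2.43 and 0 CPM in wild type.

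In the list of other MS4A and Tmem176 genes, 2 of 4 tested genes lay higher and 2 lower. Their median of -0.14 was -1.88 without Suz12 cKO replicate 2, 0.09 without Suz12 cKO replicate 1 and -1.45 with limma-voom. Tmem176b and Tmem176a, membrane proteins related to the MS4A family, were abundant with overlapping groups. Tmem176b lay at 399.8, 575 and 436 CPM in Suz12 cKO, against 520.2 and 383 CPM in wild type. Tmem176a lay at 114, 290.4 and 249.7 CPM in Suz12 cKO, against 277 and 276 CPM in wild type.

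Of 8 tested genes of the phagocyte oxidase and of microbial killing, 1 lay higher and 7 lower; the median was -0.34, and -0.13 without wild type replicate 1. Every Suz12 cKO library lay below both wild type libraries for 1 of them, beside 10.2% of all tested genes. Cyba, the small membrane subunit of the oxidase, lay at 364, 364 and 427 CPM in Suz12 cKO, against 617 and 403 CPM in wild type. Its partner Cybb varied most, at 0.0626, 17.5 and 12.0 CPM in Suz12 cKO, against 97.9 and 4.07 CPM in wild type. The regulatory subunit gene Ncf4 lay at 201, 286 and 371 CPM in Suz12 cKO, against 353 and 339 CPM in wild type.

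Macrophage receptors and regulators were divided, with 12 of 21 tested genes higher and 9 lower and a median of 0.44. That median was -0.12 with limma-voom, -0.10 without Suz12 cKO replicate 2 and -0.05 without wild type replicate 2. Cd14, the co-receptor for bacterial lipopolysaccharide, lay at 612, 1701 and 1330 CPM in Suz12 cKO, against 1274.5 and 1097 CPM in wild type. Lgals3, the lectin galectin-3, lay at 1636, 538 and 828 CPM in Suz12 cKO, against 1081 and 1006 CPM in wild type. The transcription factor gene Cebpa had 26, 22 and 8 counts in Suz12 cKO and no count in wild type. The scavenger receptor gene Msr1 had no count in Suz12 cKO replicate 1, 468 and 280 counts in replicates 2 and 3, and no count in wild type.

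No marker gene of another cell type was called by edgeR, but neither was any of the 9988 tested genes. The lack of a call therefore says nothing about these cells, and the values of each list follow. Among dermal macrophage markers 7 of 8 tested genes lay lower and 1 higher, and 4 of the 8 had every Suz12 cKO value under both wild type values, beside 10.2% of all tested genes. The 13 markers summed to 292 to 629 CPM in Suz12 cKO and to 604 to 846 CPM in wild type, while Folr2 and Lyve1 were at 0. Among alveolar macrophage markers 5 of 6 tested genes lay lower, and 2 of the 6 had every Suz12 cKO value under both wild type values. The 16 markers summed to 324 to 512 CPM in Suz12 cKO and to 433 to 938 CPM in wild type, while 6 were at 0. Their part in the lower values of the 10 genes was not tested.

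Monocyte markers summed to 57.5 to 447 CPM in Suz12 cKO and to 97.0 to 126 CPM in wild type, most of it from Nr4a1 in each library, and the defining marker Ly6c2 was at most 4.19 CPM. Of the neutrophil markers 8 of 13 had no count, S100a9 had none, Ly6g had at most 1, and Mmp9 held nearly all of the sum. Keratinocyte markers lay higher for 10 of 12 tested genes, with sums of 813 to 1149 CPM in Suz12 cKO and of 329 to 780.1 CPM in wild type. For 5 of the 12 every Suz12 cKO value was above both wild type values, beside 8.87% of all tested genes, and for 0 every one was below. T cell markers lay lower for 8 of 9, with sums of 393 to 1008 CPM in Suz12 cKO and of 603 to 887 CPM in wild type. B cell markers had no count, mast cell markers summed to at most 15.4 CPM, and melanocyte markers summed to 33.1 to 145 CPM in Suz12 cKO and to 39.6 and 429 CPM in wild type. The part of these cells in the result was not tested.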

How the data were processed

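The authors deposited raw counts per gene for 5 libraries, both in 1 joint table and in a separate file for each library; per the submitters' processing notes reads were counted with featureCounts on mm10. The sources used here do not give the aligner, tool versions, strand setting or rule for multi-mapped reads. The deposited gene length, another column of the authors' table, was used only to set levels per kilobase. The 5 files per sample held the same counts as the table.

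A RefSeq symbol (GRCm38.p6) was found for 25275 of 27179 identifiers; the fit kept the 1904 others, with 1.46% to 2.30% of all counts. edgeR 4.0.16 in R 4.3.3 was run on all genes (filterByExpr, minimum count 10; TMM; robust quasi-likelihood F test on genotype), with Benjamini-Hochberg adjustment at 0.05. Standard errors are the fold change over the square root of F. Per-library shares have 95% exact binomial intervals.

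The 10 genes, the lists and the rule for named genes were chosen with earlier results of these data known. The rule named the 10 genes, in each of 7 lists the 2 most abundant and the 2 with the smallest p, and the 3 closest profiles of Lyz2, Mpeg1, Cd68 and Ms4a7. Alternatives were DESeq2 1.42.0, RLE, upper-quartile and no factors, other filters and prior counts, limma-voom (limma 3.58.1), a non-robust fit, a replicate block, title style as a term, the lysozymes summed and each library left out. Values within a title style were added after seeing the data. Libraries of a genotype differed by a chi-square of 181.5 to 410.5 per degree of freedom, so none was taken for a repeat of another. Figures were drawn with matplotlib 3.10.9.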

Additional observations from a re-analysis of the deposited data

How the results depend on the processing

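The count of 0 genes called by edgeR became 191 with DESeq2, which called 2 of the 10 genes and 1 gene of the 7 lists, and 1 with the replicate block; in every other setting tried it was 0. The replicate number gave no sign of pairing, since same-numbered libraries had correlations of -0.02 and -0.01 between their deviations from the genotype means across genes, and with the block 0 of the 10 genes were called. Of 169 recomputed fold changes of the 10 genes, 160 moved by less than 1 SD between replicates, 6 moved by more and 3 changed sign. The non-robust fit returned the same fold changes as the main fit, so this tally is no measure of stability. Without wild type replicate 1, Lyz2, Lyz1, Mmp12 and Ms4a6d moved by more and Ms4a6b and Ms4a4c changed sign. With a library left out, Ms4a6b ran from -2.24 to 0.69 and Ms4a4c from -2.18 to 1.40, both positive without wild type replicate 1, and Ms4a6d from -0.38, without wild type replicate 2, to 2.18. The cause was not tested. The count of genes below wild type in every Suz12 cKO library was 7 of 10 under each scaling and 6 of 9 with the lysozymes summed. It was 10 of 10 without wild type replicate 2, where 23.1% of all tested genes were below, and 7 of 10 with any other library left out, beside 15.4% to 23.6% of all tested genes. Leaving out a library can only keep or raise this count, so it is no test of the order the genes were chosen for. The mean Lyz1 share ran from 6.17% to 6.87% in Suz12 cKO and from 5.63% to 6.44% in wild type with a library left out. With 3 libraries against 2, and Ms4a7 at 3 to 6 counts in 2 of them, neither small differences nor the size of the Ms4a7 gap can be fixed closely.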
